A study of Mus musculus with 44 samples.

Results

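Primary mouse cortical neurons that received 100 µM of an interfering peptide together with dexamethasone (DEX) were compared with the same kind of culture that received 100 µM of a control peptide together with DEX. This is the one peptide dose that both peptides share, and it takes 8 of the 44 libraries of the series, 4 with the interfering and 4 with the control peptide. The libraries were taken by their treatment labels, and values are given for genes of chromosomes 1 to 19 and the mitochondrial genome (MT), so X-linked genes such as Tsc22d3 are not described. All 8 libraries carry DEX, which activates the glucocorticoid receptor, treatment lasted 4 hours, and the cultures grew in Neurobasal medium with the supplement B27. The series asks how FRMD5, which carries a FERM domain of the kind that links membrane proteins to the cytoskeleton, alters functions of the glucocorticoid receptor. The other neuron libraries, 4 in each group, had the control peptide at 100 µM without DEX, or DEX with the interfering peptide at 1, 3, 10 or 30 µM. The labels give neither the peptide sequences nor the mouse strain and age, the DEX concentration or whether a group's libraries stem from separate cultures, so p-values measure only the spread between these libraries. Interfering peptide without DEX is not analysed here, so an effect of the peptide on the response to DEX and an effect of the peptide alone cannot be told apart.

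The glucocorticoid receptor is a transcription factor that waits in the cytoplasm in a chaperone complex and enters the nucleus when it binds hormone, where it raises genes such as Fkbp5, Tsc22d3 and Per1. Neurons also hold a fast transcriptional programme, the immediate-early genes (Fos, Egr and Nr4a families, Npas4), which synaptic activity, calcium entry and growth factors switch on through CREB and serum response factor without new protein synthesis. Their products drive a later set of effector genes that adjust synapses and release peptides.

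Total counts ran from 13685236 to 14492813 in the 8 libraries, and levels are given as CPM, TMM-scaled counts per 1e+06 counts. The cultures held neuronal transcripts at high levels. Map2, a dendritic microtubule protein, averaged 1427 ± 76.8 CPM with the interfering and 1216 ± 85.3 CPM with the control peptide, and Tubb3, the neuronal tubulin, 1031 ± 31.1 and 1009 ± 36.6 CPM (SD, n = 4 each). Markers of astrocytes and radial glia were also present, with a summed level of 2328 to 2474 CPM in interfering peptide libraries and 2219.7 to 2257 CPM in control peptide libraries. Oligodendrocyte markers summed to 88.5 to 95.5 CPM with the interfering and 85.6 to 111 CPM with the control peptide. Microglia markers summed to 51.9 to 60.02 CPM with the interfering and 45.96 to 53.3 CPM with the control peptide, and vascular and meningeal markers summed to 179 to 185 CPM with the interfering and 171 to 195 CPM with the control peptide. Of 15 neuron markers tested, edgeR called 5 higher and 1 lower, or 40%, against 23.3% of all genes, and Map2 was called higher. Of 12 microglia markers tested, 0 were called by edgeR or by DESeq2, and 0 had an unadjusted p below 0.05. Of 14 vascular markers 0 were called by either tool, and 1 had an unadjusted p below 0.05.

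Within each group, the deviations from the group mean set libraries 1 and 3 together, and likewise libraries 2 and 4. In the 7 of 7 neuron groups, the deviations of these pairs from the group mean correlated more than those of the other pairs (r of -0.249 to -0.169 against -0.439 to -0.379 in the 2 groups compared), although the paired libraries still differed by more than sampling noise. By the chi-square of raw counts per degree of freedom the pattern was less sharp, since control peptide libraries 1 and 3 differed by 4.52 and libraries 3 and 4 by 4.4. If the pairs share a culture or a preparation, which the labels do not say, the 4 libraries of a group are closer to 2 independent samples. A called gene whose change in this comparison is given therefore comes with a second adjusted p, obtained after libraries 1 and 3, and libraries 2 and 4, were summed. It is called the adjusted p with summed pairs.

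At 100 µM the interfering peptide libraries differed from control peptide libraries at 4005 of 17213 genes tested, which is 23.3% (edgeR's quasi-likelihood test, Benjamini-Hochberg adjusted p below 0.05). Higher levels were called for 2002 genes, or 11.6%, and lower levels for 2003 genes, also 11.6%. Most changes were small, with a median absolute log2 change of 0.32 among called genes. At least 2-fold changes were called for 131 higher and 238 lower genes. With summed pairs 1744 genes were called, which is 10.1%, and 1743 of them were called without summing and had the same sign. Among 13124 genes averaging 2 CPM or more, in 3490 the groups did not overlap, which is 26.6%. Genes named below for the largest rises and falls were picked among these, so their lack of overlap is no separate result. The median log2 change of all genes was -0.01, against which the medians of gene lists below can be read. Counts of list members called in this comparison can be read against the 11.6% of all genes called in each direction. Of the genes given with values below, Junb, Bdnf, Crem, Penk, Icam1, Nfkb2, Vcam1, Il1b, Csf1r, P2ry12, Cxcl10, Irf1, Psmb9, Hmgcs1, Cyp51, Lss, Hspa1a, Shmt2, Ppp1r15a, Ankrd37, Bnip3, Gapdh, Hist1h2ac, Dusp1, Tiparp, Ncor1, Map2, Slc16a9, Arsg and Gm42743 have exons that overlap those of a gene on the opposite strand. The strand setting of the counts is not stated, so reads of both genes cannot be told apart.

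Transcription factors of the immediate-early class rose together. Of 26 tested members 18 were higher and 0 lower, with a median log2 change of 0.79 over the tested members, and with summed pairs 17 were higher. The called members were Egr1, Egr2, Fos, Fosb, Npas4, Junb, Nr4a1, Ier2, Klf4, Egr3, Jun, Nr4a3, Maff, Nr4a2, Klf6, Jund, Fosl2 and Myc. Of these, Fosl2 had an adjusted p of 0.055 with summed pairs. The members that did not pass were Egr4, Btg2, Klf2, Atf3, Klf10, Srf, Fosl1 and Ier5, with log2 changes between -0.06 (Ier5) and 0.92 (Egr4).

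The 250 bases before the RefSeq start sites of 4 of these genes are shown, because members of the list moved together and most of those with a window share a short sequence there (build GRCm38.p6, 5′ to 3′ on the gene's strand). Capitals mark TGACG, the half-site of the cyclic AMP response element, found on either strand. The half-site lies within the full element TGACGTCA. It was present in 17.9% of 31396 promoter windows of the same length. Fos lies at chr12:85473640-85473889, plus strand, Fosb at chr7:19310046-19310295, minus strand, Junb at chr8:84978749-84978998, minus strand, and Npas4 at chr19:4989972-4990221, minus strand.
Fos: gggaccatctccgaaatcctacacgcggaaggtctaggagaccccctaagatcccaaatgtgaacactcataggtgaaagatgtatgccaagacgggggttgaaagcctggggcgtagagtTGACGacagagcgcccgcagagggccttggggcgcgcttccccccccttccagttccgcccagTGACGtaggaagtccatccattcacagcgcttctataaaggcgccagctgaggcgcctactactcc
Fosb: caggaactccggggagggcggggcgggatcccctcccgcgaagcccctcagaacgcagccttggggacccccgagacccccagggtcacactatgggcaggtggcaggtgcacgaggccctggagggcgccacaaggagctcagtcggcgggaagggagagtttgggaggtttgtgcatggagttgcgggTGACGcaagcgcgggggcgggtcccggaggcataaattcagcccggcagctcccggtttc
Junb: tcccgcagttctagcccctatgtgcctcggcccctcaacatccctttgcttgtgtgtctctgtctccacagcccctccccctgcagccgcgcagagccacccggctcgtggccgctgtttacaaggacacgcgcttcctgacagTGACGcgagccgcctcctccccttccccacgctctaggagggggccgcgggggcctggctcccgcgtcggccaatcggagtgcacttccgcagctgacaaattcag
Npas4: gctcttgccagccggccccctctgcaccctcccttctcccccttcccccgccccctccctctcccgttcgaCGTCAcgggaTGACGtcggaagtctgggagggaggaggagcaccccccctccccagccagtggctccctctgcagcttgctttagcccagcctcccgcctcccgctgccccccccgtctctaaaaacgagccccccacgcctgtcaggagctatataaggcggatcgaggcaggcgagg
The windows of Fos and Npas4 each held 2 half-sites, and those of Fosb and Junb held 1. Among called members of the list, 14 had a window and 10 of these held the half-site, which is 71.4%, against 20% of 25748 genes with a window. Over all tested members, called or not, it was 15 of 20, or 75.0%. The full element TGACGTCA was rarer, in 1 of the 14, or 7.14%, and in 2 of the 20, against 1.81% of all genes. The CArG box bound by serum response factor was found in 1 of the 14, and in 1.55% of all genes. These are matches of letters in short windows and say nothing of binding.

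Egr1, a zinc-finger factor of the early response, had 282, 179, 292 and 184 CPM in interfering peptide libraries 1 to 4, against 30.9, 27.2, 29.2 and 27.1 CPM in control peptide libraries 1 to 4. The lowest interfering peptide library was above every control peptide library, and libraries 1 and 3 were higher than libraries 2 and 4. The log2 change was 3.03 ± 0.15 (SE; adjusted p = 1.4e-12, with summed pairs 0.0004). Fos, the founding member of the AP-1 dimer, had 180.3, 131, 174 and 135 CPM with the interfering peptide and 22.8, 20.8, 19.3 and 23.2 CPM with the control peptide, a log2 change of 2.85 ± 0.12 (adjusted p = 1.1e-13, with summed pairs 4.8e-05). Fosb, its close relative, had 63.3, 57.1, 66.5 and 61.3 CPM with the interfering and 9.21, 7.03, 10.3 and 11.99 CPM with the control peptide, a log2 change of 2.68 ± 0.12 (adjusted p = 3.6e-17, with summed pairs 5.7e-08). For Fosb the 4 interfering peptide libraries lay close together, and no library overlapped the control group.

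Npas4, a neuron-specific factor known for its response to calcium entry, had 49.3, 38.02, 48.1 and 42.8 CPM with the interfering peptide and 8.31, 8.96, 7.46 and 8.25 CPM with the control peptide, a log2 change of 2.43 ± 0.11 (adjusted p = 6.5e-23, with summed pairs 2.7e-10). Junb, a partner of Fos in AP-1, had 49.6, 29.9, 47.3 and 33.98 CPM with the interfering and 10.6, 8.62, 9.05 and 10.9 CPM with the control peptide, a log2 change of 2.04 ± 0.14 (adjusted p = 3e-11, with summed pairs 0.00016). The orphan nuclear receptor Nr4a1 had 81.2, 62.96, 69.1 and 61.7 CPM with the interfering and 26.9, 28.3, 24.03 and 28.2 CPM with the control peptide, a log2 change of 1.35 ± 0.11 (adjusted p = 1.9e-09, with summed pairs 0.00088). Egr2 was scarce, with 8.24, 3.67, 6.17 and 3.84 CPM with the interfering and 1.04, 0.414, 0.724 and 0.818 CPM with the control peptide, and its log2 change was 2.86 ± 0.29 (adjusted p = 4.2e-10, with summed pairs 1.1e-05). In each of these genes the groups did not overlap.

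**Figure D1:**
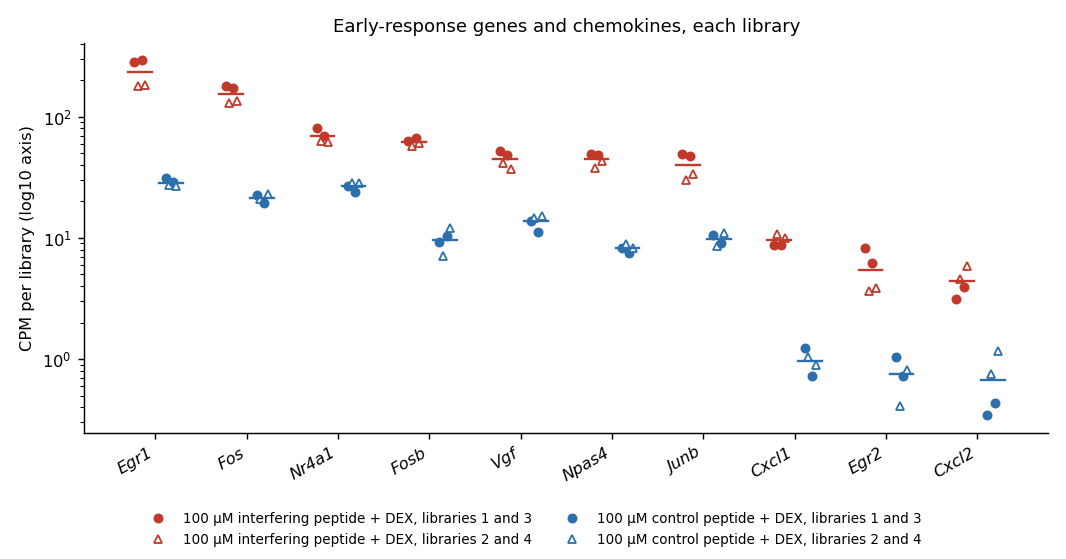
CPM of each library on a log10 axis for 10 early-response genes and chemokines in 100 µM interfering peptide libraries (red) and 100 µM control peptide libraries (blue), both with DEX. Filled circles are libraries 1 and 3, open triangles libraries 2 and 4, and bars the means of 4 libraries. For all 10 genes plotted the red and blue points do not overlap, and for Egr1 libraries 1 and 3 of the interfering peptide lie above libraries 2 and 4.

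In control peptide cultures, DEX against no DEX called 2 of the 26 factors higher and 1 lower, where 5.48% of all genes were called higher and 5.33% lower, and neither Egr1 nor Fos passed. Egr1 averaged 28.6 ± 1.85 CPM with DEX and 23.2 ± 2.82 CPM without (log2 change 0.30 ± 0.16, adjusted p = 0.26), and Fos 21.5 ± 1.82 CPM with DEX and 23.03 ± 2.62 CPM without (log2 change -0.10 ± 0.14, adjusted p = 0.71). Across the groups, mean Egr1 was 23.2 CPM in control peptide cultures without DEX, 28.6 CPM in control peptide cultures with DEX, and 28.7, 60.4, 118, 188 and 234 CPM at 1, 3, 10, 30 and 100 µM interfering peptide. Mean Npas4 in the same order was 8.52 and 8.24 CPM, then 6.13, 12.9, 28.7, 39.2 and 44.6 CPM. The lowest dose gave means near or below that of the control peptide with DEX for both genes, and the means increased from 3 µM upward. Setting 100 µM against 1 µM interfering peptide, a comparison that does not use the control peptide, 18 of the 26 listed factors were higher and 0 lower, where 10% of all genes were called higher. Against 30 µM edgeR called 0 of the 26, where it called 2.69% of all genes, while 6 had an unadjusted p below 0.05 and DESeq2 called 1 lower. Egr1 was 0.31 higher in log2 at 100 µM than at 30 µM (adjusted p = 0.2) and Fos 0.10 (adjusted p = 0.73).

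The effector genes that follow neuronal activity moved the same way. Of 32 tested, 20 were higher and 0 lower, with a median log2 change of 0.37, and 13 were higher with summed pairs. With libraries 1 and 3 alone 17 were higher and 1 lower, and with libraries 2 and 4 alone 14 were higher and 2 lower. Vgf, the precursor of several neuropeptides, had 52.6, 41.6, 48.4 and 37.1 CPM with the interfering peptide and 13.8, 14.7, 11.1 and 15.1 CPM with the control peptide, a log2 change of 1.72 ± 0.14 (adjusted p = 2.8e-09, with summed pairs 0.00092). Gadd45b, a stress and DNA-demethylation factor induced by activity, had 13.8, 10.1, 13.3 and 11.6 CPM with the interfering and 5.47, 5.51, 5.14 and 3.203 CPM with the control peptide, a log2 change of 1.34 ± 0.15 (adjusted p = 4.2e-09, with summed pairs 4.8e-05). Plk2, a kinase of synaptic down-scaling, had 165, 155, 151 and 158 CPM with the interfering and 111, 106, 103 and 112 CPM with the control peptide (log2 change 0.54 ± 0.05, adjusted p = 1.9e-11, with summed pairs 1.4e-05). Every interfering peptide library exceeded every control peptide library for these 3 genes.

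Smaller rises were found for Sik1, a salt-inducible kinase that restrains CREB coactivators, and for Dusp4, a phosphatase that turns off MAP kinases. Sik1 had 72.6, 68.7, 75.3 and 70.8 CPM with the interfering and 56.8, 48.9, 53.9 and 55.1 CPM with the control peptide (log2 change 0.42 ± 0.06, adjusted p = 9e-07, with summed pairs 0.0025), and Dusp4 had 157, 152, 149 and 138 CPM with the interfering and 116, 112, 114 and 113 CPM with the control peptide (log2 change 0.39 ± 0.05, adjusted p = 1.3e-07, with summed pairs 0.0013). Homer1, a scaffold of metabotropic glutamate receptors with an activity-induced short form, had 129, 128, 134 and 128 CPM with the interfering and 81.3, 78.8, 99.1 and 90.5 CPM with the control peptide (log2 change 0.57 ± 0.09, adjusted p = 3e-05, with summed pairs 0.0036). The other called effectors were Ptgs2, Nptx2, Pcsk1, Bdnf, Inhba, Arc, Cyr61, Plk3, Spry4, Scg2, Spry2, Dusp6, Nptx1 and Rgs4. Among these, Bdnf, the neurotrophin, changed by 0.77 ± 0.25 in log2 (adjusted p = 0.018) and Arc, the synaptic capsid-like protein, by 0.60 ± 0.21 (adjusted p = 0.036), but with summed pairs their adjusted p was 0.098 and 0.23. Members that did not pass included Crem at -0.28 ± 0.12 (adjusted p = 0.082) and Penk, the enkephalin precursor, at 0.04 ± 0.21 (adjusted p = 0.91). Against 1 µM interfering peptide 17 of the 32 were higher and 1 lower, where 10% of all genes were called higher. Against 30 µM 2 of the 32 were higher and 0 lower, where 1.57% of all genes were called higher.

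Targets of NF-kB, the transcription factor of inflammatory signalling, rose as well. Of 20 tested members of the list 13 were higher and 0 lower, with a median log2 change of 0.69, and 8 were higher with summed pairs. The chemokines Cxcl1 and Cxcl2, which attract neutrophils, changed most, and the 250 bases before their starts are shown because both hold the same run. They are neighbours on chromosome 5, at chr5:90890995-90891244, plus strand for Cxcl1 and chr5:90903649-90903898, plus strand for Cxcl2. Capitals mark a pair of overlapping matches to the NF-kB site, one on each strand.
Cxcl1: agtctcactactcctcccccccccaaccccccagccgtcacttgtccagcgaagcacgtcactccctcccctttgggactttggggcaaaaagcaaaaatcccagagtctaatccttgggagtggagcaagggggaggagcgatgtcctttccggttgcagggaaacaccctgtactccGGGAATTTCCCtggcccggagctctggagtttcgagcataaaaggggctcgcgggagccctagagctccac
Cxcl2: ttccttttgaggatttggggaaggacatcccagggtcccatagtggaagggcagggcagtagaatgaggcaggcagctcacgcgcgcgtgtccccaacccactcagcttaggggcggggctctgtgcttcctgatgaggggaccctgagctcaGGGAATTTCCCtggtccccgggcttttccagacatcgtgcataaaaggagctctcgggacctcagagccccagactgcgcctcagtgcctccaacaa
The NF-kB site was present in 7.34% of 31396 windows. Of the called members 9 had a window and 5 of these held the site, which is 55.6%, against 8.35% of all genes with a window. Over all tested members with a window, it was 7 of 14.

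Cxcl1 had 8.75, 10.8, 8.79 and 9.93 CPM in interfering peptide libraries and 1.246, 1.03, 0.724 and 0.886 CPM in control peptide libraries, a log2 change of 3.28 ± 0.25 (adjusted p = 4.7e-14, with summed pairs 1e-05). Its mean was 0.851 CPM with control peptide without DEX and 0.972 CPM with DEX, and 0.587, 0.919, 3.33, 5.24 and 9.56 CPM at 1, 3, 10, 30 and 100 µM interfering peptide. Unlike Egr1 and Fos, Cxcl1 was also called higher at 100 µM than at 30 µM (log2 change 0.86, adjusted p = 0.0082), although whether these genes differ in that step was not tested. Cxcl2 had 3.15, 4.6001, 3.97 and 5.87 CPM with the interfering and 0.346, 0.758, 0.434 and 1.16 CPM with the control peptide, a log2 change of 2.68 ± 0.33 (adjusted p = 4.5e-08, with summed pairs 0.00022).

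Ccl2, which attracts monocytes, had 4.52, 4.53, 2.84 and 5.58 CPM with the interfering and 0.762, 0.482, 0.724 and 0.886 CPM with the control peptide, a log2 change of 2.60 ± 0.50 (adjusted p = 0.00039, but 0.051 with summed pairs). Ccl3 had 7.67, 5.82, 6.67 and 6.74 CPM with the interfering and 2.7003, 3.31, 2.24 and 3.27 CPM with the control peptide, a log2 change of 1.22 ± 0.18 (adjusted p = 1.3e-06, with summed pairs 0.0012). Of the feedback inhibitors of the pathway, Tnfaip3 (A20) changed by 0.59 ± 0.11 (adjusted p = 4.3e-05, with summed pairs 0.0077) and Nfkbia by 0.49 ± 0.12 (adjusted p = 0.0027, with summed pairs 0.064). Vcam1, an adhesion receptor, had 55.8, 53.05, 59.1 and 54.99 CPM with the interfering and 45.1, 41.9, 43.9 and 44.8 CPM with the control peptide (log2 change 0.34 ± 0.06, adjusted p = 1e-05, with summed pairs 0.0049). Among the other called members were the cytokine Tnf at 1.72 ± 0.36 (adjusted p = 0.00043, with summed pairs 0.0051), the chemokine Ccl4 at 1.24 ± 0.22 (adjusted p = 4.4e-05, with summed pairs 0.0029) and the prostaglandin enzyme Ptgs2 at 1.26 ± 0.26 (adjusted p = 0.00029, with summed pairs 0.0064). Icam1, an adhesion molecule, and the pathway subunits Relb and Nfkb2 were called at 0.76, 0.75 and 0.62 in log2, but with summed pairs their adjusted p was 0.077, 0.15 and 0.11. The complement gene C3 at -1.01 ± 0.53 (adjusted p = 0.17) and the cytokine Il1b at 0.21 ± 0.42 (adjusted p = 0.76) did not pass. The chemokines are scarce transcripts that microglia make as well as astrocytes. Among microglia markers, Csf1r had 9.89, 10.5, 10.6 and 9.13 CPM with the interfering and 9.07, 9.03, 7.96 and 8.996 CPM with the control peptide (log2 change 0.19 ± 0.12, adjusted p = 0.25) and P2ry12 5.23, 5.97, 6.74 and 6.67 CPM with the interfering and 4.29, 4.82, 4.78 and 5.11 CPM with the control peptide (log2 change 0.37 ± 0.19, adjusted p = 0.16). In both genes every interfering peptide library lay above every control peptide library. The groups did not overlap in 3 of the 12 microglia markers, where this held for 26.6% of genes averaging 2 CPM or more. The log2 changes of the 12 microglia markers ran from -0.26 to 0.53, with a median of 0.19. The part of microglia in the chemokine values was not tested. In bulk RNA, more cells of a type and more RNA per cell cannot be told apart.

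Of 18 interferon-induced genes tested, 2 were higher and 1 lower, with a median of -0.22, so 16.7% were called against 23.3% of all genes. Cxcl10 had 2.29, 2.3001, 1.49 and 2.898 CPM with the interfering and 0.831, 1.03, 1.38 and 0.477 CPM with the control peptide (log2 change 1.27 ± 0.34, adjusted p = 0.0052, with summed pairs 0.043), and the factor Irf1 changed by 0.97 ± 0.31 (adjusted p = 0.022, with summed pairs 0.1). Psmb9, an immunoproteasome subunit, was the lower member, with 0.0717, 0.216, 0.0709 and 0.0724 CPM with the interfering and 0.554, 0.6203, 0.2895 and 0.613 CPM with the control peptide (log2 change -2.19 ± 0.69, adjusted p = 0.017, with summed pairs 0.033), levels that rest on few counts.

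**Figure D2:**
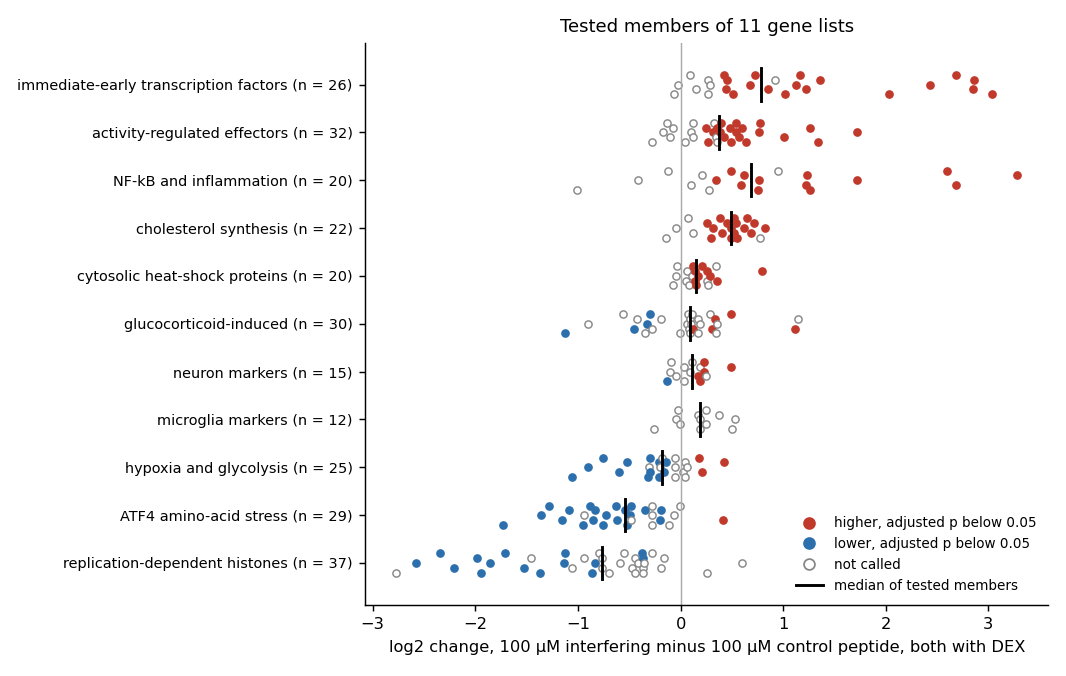
Log2 change between 100 µM interfering and 100 µM control peptide, both with DEX, for every tested member of 11 gene lists. Red points were called higher, blue points lower, open points were not called, and black bars are medians. Early transcription factors, activity effectors, NF-kB targets and cholesterol genes have medians above 0.3, and ATF4 targets and histones have medians below -0.5.

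Genes of cholesterol synthesis rose together. Of 22 tested, 17 were higher and 0 lower, with a median log2 change of 0.49, and 16 were higher with summed pairs, all but Fdps (adjusted p = 0.055). Called members included Idi1, Hmgcs1, Insig1, Sqle, Cyp51, Stard4, Sc5d, Lss, Fdps, Msmo1, Mvd, Fdft1, Hsd17b7 and Dhcr7. Hmgcs1, an early enzyme of the pathway, had 982, 912, 961 and 883 CPM with the interfering peptide and 552, 579, 603 and 594 CPM with the control peptide, a log2 change of 0.68 ± 0.04 (adjusted p = 4.5e-19, with summed pairs 1.1e-07). Sqle, squalene epoxidase, had 267, 228, 257 and 251 CPM with the interfering and 171, 165, 159 and 157 CPM with the control peptide (log2 change 0.62 ± 0.04, adjusted p = 2.2e-15, with summed pairs 8.7e-07). No library of one group overlapped the other for either gene.

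Further down the pathway, the demethylase Cyp51 had 345, 308, 348 and 317 CPM with the interfering and 231, 218, 229 and 225 CPM with the control peptide (log2 change 0.55 ± 0.04, adjusted p = 2.1e-14, with summed pairs 6.7e-06), and the cyclase Lss 196, 178, 206 and 182 CPM with the interfering and 142, 129, 142 and 129 CPM with the control peptide (log2 change 0.49 ± 0.05, adjusted p = 1.2e-10, with summed pairs 0.00019). Srebf2, the transcription factor that drives these genes, was at 0.12 ± 0.05 and did not pass (adjusted p = 0.056). Against 1 µM interfering peptide 14 of the 22 were higher and 0 lower, where 10% of all genes were called higher. Against 30 µM 3 were higher and 0 lower, where 1.57% of all genes were called higher. Mean Hmgcs1 was 548 CPM with control peptide without DEX and 582 CPM with DEX, and 659, 741, 749, 840.1 and 935 CPM from 1 to 100 µM interfering peptide. Each step up in dose had a higher mean, and Hmgcs1 at 100 µM exceeded both 30 µM (log2 change 0.15, adjusted p = 0.011) and 1 µM (log2 change 0.50, adjusted p = 1.2e-14). The sterol element TCACNCCAC was found in 1 of 10 called members with a window, and in 323 of 25748 genes.

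**Figure D3:**
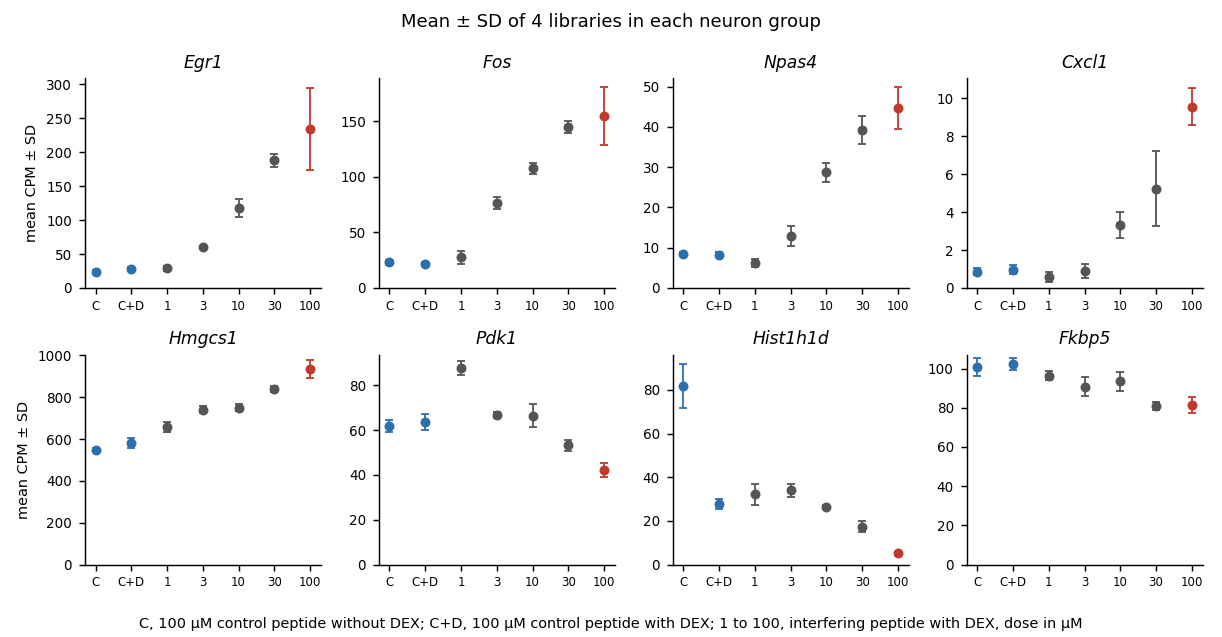
Mean CPM and SD of 4 libraries in each of the 7 neuron groups for 8 genes, each axis starting at 0. Blue points are control peptide at 100 µM without (C) and with (C+D) DEX, grey points are 1 to 30 µM interfering peptide with DEX, and the red point is 100 µM. Egr1, Fos and Npas4 leave the control level from 3 µM, Cxcl1 from 10 µM, and Hist1h1d is lowest at 100 µM.

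Cytosolic heat-shock genes showed small rises. Of 20 tested 10 were higher and 0 lower, with a median of 0.15, but 3 with summed pairs. Hspa1b, an inducible Hsp70, had 45.1, 32.7, 46.7 and 33.5 CPM with the interfering and 24.6, 22.7, 22.8 and 21.2 CPM with the control peptide (log2 change 0.79 ± 0.11, adjusted p = 6.6e-07, with summed pairs 0.004). Its near-identical copy Hspa1a was at -0.05 ± 0.17 (adjusted p = 0.87), and how the counting assigned reads that match both is not stated. Hspa8, the constitutive Hsp70 that also folds the glucocorticoid receptor, had 891, 856, 891 and 884 CPM with the interfering and 743, 736, 732 and 729.9 CPM with the control peptide (log2 change 0.26 ± 0.03, adjusted p = 2.1e-07, with summed pairs 0.0036). Hsf2, a heat-shock transcription factor, changed by 0.36 ± 0.07 (adjusted p = 0.00011, with summed pairs 0.0076). Of 19 genes of endoplasmic reticulum folding 4 were higher and 3 lower, so 36.8% were called against 23.3% of all genes. With summed pairs 0 of them were called, while 6 had an unadjusted p below 0.05.

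Genes of the amino-acid stress response moved down. ATF4 is the factor that raises amino-acid transporters, tRNA synthetases and one-carbon enzymes when translation is throttled. Of 29 tested targets 20 were lower and 1 higher, with a median log2 change of -0.54, but with summed pairs 2 were lower and 1 higher. The lower members were Trib3, Stc2, Chac1, Slc7a11, Sesn2, Slc6a9, Asns, Mthfd2, Slc7a5, Shmt2, Ddit3, Slc3a2, Atf5, Vldlr, Aars, Gars, Aldh1l2, Phgdh, Sars and Cebpg. The transcript of Atf4 itself was at -0.01 ± 0.10 (adjusted p = 0.96). With libraries 1 and 3 alone 15 of the 29 were lower and 2 higher, with a median of -0.27, and with libraries 2 and 4 alone 27 were lower and 1 higher, with a median of -0.97.

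Trib3, a pseudokinase that dampens ATF4, had 7.96, 2.08, 9.01 and 2.101 CPM in interfering peptide libraries and 14.3, 20.2, 14.3 and 21.9 CPM in control peptide libraries (log2 change -1.74 ± 0.38, adjusted p = 0.002, but 0.14 with summed pairs). Interfering peptide libraries 2 and 4 were lowest and control peptide libraries 2 and 4 highest. Stc2, a secreted glycoprotein, had 21.3, 15.02, 22.8 and 15.3 CPM with the interfering and 43.4, 50.9, 44.8 and 51.9 CPM with the control peptide (log2 change -1.36 ± 0.18, adjusted p = 1.2e-05, with summed pairs 0.029). Shmt2, the mitochondrial serine hydroxymethyltransferase, had 88.3, 66.1, 85.7 and 61.4 CPM with the interfering and 124, 138, 117 and 132 CPM with the control peptide (log2 change -0.76 ± 0.14, adjusted p = 0.00059, with summed pairs 0.091). Slc3a2, the heavy chain of several amino-acid transporters, had 136, 103, 136 and 106 CPM with the interfering and 169.6, 204, 165 and 205 CPM with the control peptide (log2 change -0.63 ± 0.12, adjusted p = 0.00052, with summed pairs 0.083). The same split, with libraries 2 and 4 further apart than libraries 1 and 3, appeared in all 4 genes.

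Vldlr, a lipoprotein and reelin receptor that ATF4 also drives, was more even, with 101, 96.03, 111 and 100.1 CPM with the interfering and 136, 156, 137 and 163 CPM with the control peptide (log2 change -0.54 ± 0.06, adjusted p = 3.3e-08, with summed pairs 0.00098). Ppp1r15a, which restores translation by dephosphorylating eIF2α and is also an early-response gene, was the higher member, at 45.6, 37.95, 44.2 and 38.98 CPM with the interfering and 32.3, 29.8, 29.6 and 33.4 CPM with the control peptide (log2 change 0.41 ± 0.08, adjusted p = 6.9e-05, with summed pairs 0.013). In control peptide cultures DEX against no DEX called 15 of the 29 higher and 0 lower, where 5.48% of all genes were called higher, with a median log2 change of 0.39. That comparison shares the control peptide libraries with DEX, so the opposite signs of both comparisons are not independent. Against 1 µM interfering peptide, without those libraries, 19 of the 29 were lower and 1 higher, where 10.3% of all genes were called lower. The element TGATGNAA bound by ATF4 with C/EBP partners was found before the start of 6 of 18 lower members with a window, or 33.3%, and in 3.72% of all genes.

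Targets of the hypoxia-inducible factors and glycolysis genes were also lower in part. Of 25 tested, 12 were lower and 3 higher, with a median of -0.19, and with summed pairs 5 were lower and 1 higher. Pdk1, which keeps pyruvate out of mitochondria, had 37.8, 42.8, 45.2 and 42.3 CPM with the interfering peptide and 63.01, 59.8, 68.5 and 63.2 CPM with the control peptide, a log2 change of -0.60 ± 0.06 (adjusted p = 1.1e-10, with summed pairs 1.5e-05). Egln3, an oxygen-sensing prolyl hydroxylase, had 22.3, 21.6, 20.8 and 21.2 CPM with the interfering and 39.1, 32.5, 37.4 and 35.8 CPM with the control peptide (log2 change -0.75 ± 0.09, adjusted p = 8.6e-08, with summed pairs 0.0015). Slc16a3, the lactate exporter MCT4, had 10.2, 10.2, 12.1 and 8.404 CPM with the interfering and 21.05, 22.3, 19.98 and 21.7 CPM with the control peptide (log2 change -1.05 ± 0.12, adjusted p = 3.2e-08, with summed pairs 0.00067). In these 3 genes the groups did not overlap.

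Ankrd37 had 2.65, 3.16, 3.05 and 2.101 CPM with the interfering and 3.95, 6.75, 3.76 and 6.07 CPM with the control peptide (log2 change -0.90 ± 0.20, adjusted p = 0.00068, with summed pairs 0.024), and the mitophagy receptor Bnip3 changed by -0.30 ± 0.07 (adjusted p = 0.0024, with summed pairs 0.04). With libraries 1 and 3 alone, neither Ankrd37 nor Bnip3 was called. The 3 higher members were Gapdh, Aldoc and Slc2a3, which are also housekeeping, astrocyte or neuronal genes, and of these Gapdh alone was called with summed pairs, at 0.43 ± 0.11 (adjusted p = 0.027). Pdk1 was highest at the lowest dose. Its mean was 61.7 CPM with control peptide without DEX and 63.6 CPM with DEX, and 87.7, 66.8, 66.4, 53.1 and 42.04 CPM from 1 to 100 µM interfering peptide. Against 1 µM, 21 of the 25 were lower and 1 higher, with a median of -0.45, where 10.3% of all genes were called lower. Against 30 µM 8 of the 25 were lower and 0 higher, where 1.12% of all genes were called lower.

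**Figure D4:**
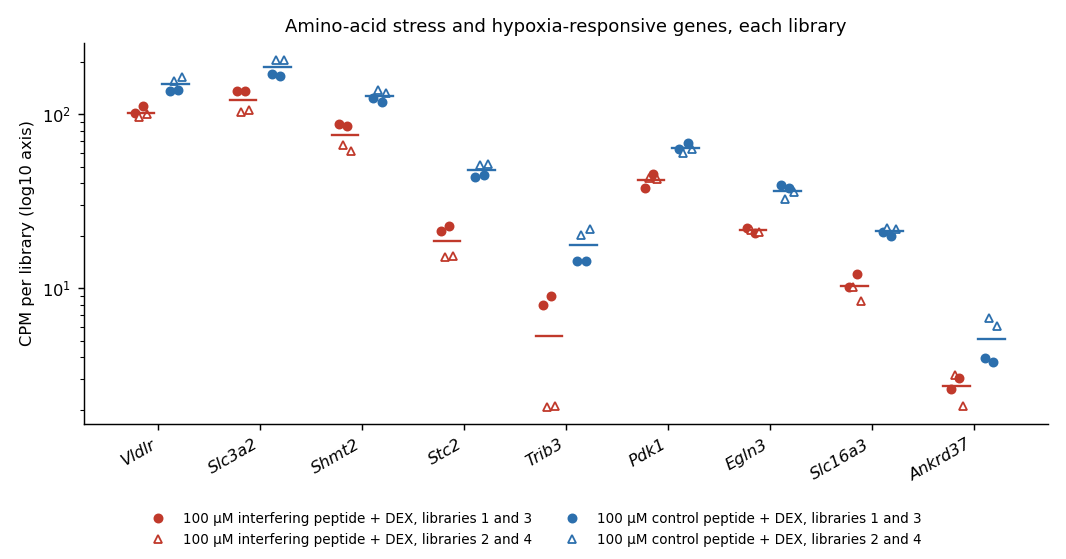
CPM of each library on a log10 axis for 5 amino-acid stress genes (Vldlr to Trib3) and 4 hypoxia-responsive genes (Pdk1 to Ankrd37) in 100 µM interfering peptide libraries (red) and 100 µM control peptide libraries (blue), both with DEX. Filled circles are libraries 1 and 3, open triangles libraries 2 and 4, and bars the means of 4 libraries. In Trib3, Stc2, Shmt2 and Slc3a2 libraries 2 and 4 lie furthest apart between groups, and in Pdk1, Egln3 and Slc16a3 all 4 libraries of a group lie together.

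Replication-dependent histone genes fell. Of 37 tested, 15 were lower and 0 higher, with a median log2 change of -0.77, and all 15 kept their call with summed pairs. A further 30 of the 67 histone genes of the table had too few counts to be tested. The count filter used all 28 neuron libraries. With only the 2 compared groups fitted, 19 of the 37 passed it, and 14 of these were lower and 0 higher. The median of the 37 thus rests in part on members that passed the filter only through other groups. Hist1h1d, a linker histone, had 5.74, 5.39, 4.82 and 5.796 CPM with the interfering peptide and 28.2, 24.9, 30.7 and 27.2 CPM with the control peptide, a log2 change of -2.35 ± 0.12 (adjusted p = 9.9e-19, with summed pairs 6e-07). Hist1h2ac, a core histone, had 4.01, 2.88, 3.62 and 2.03 CPM with the interfering and 12.7, 11.2, 13.6 and 12.2 CPM with the control peptide, a log2 change of -1.98 ± 0.14 (adjusted p = 2.6e-15, with summed pairs 1.1e-07). In both genes the groups were far apart.

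Hist1h1e had 1.004, 1.94, 0.78003 and 0.797 CPM with the interfering and 3.95, 4.89, 3.76 and 4.91 CPM with the control peptide (log2 change -1.95 ± 0.21, adjusted p = 9.2e-10, with summed pairs 1.1e-05) and Hist1h2be 6.31, 4.67, 7.45 and 4.71 CPM with the interfering and 16.96, 21.2, 20.5 and 17.1 CPM with the control peptide (log2 change -1.71 ± 0.15, adjusted p = 2.9e-10, with summed pairs 0.00024). Their exons overlap on the same strand, so these 2 genes are not separate evidence. Hist1h4k had 0.645, 0.288, 0.567 and 0.652 CPM with the interfering and 2.91, 2.55, 2.32 and 2.32 CPM with the control peptide (log2 change -2.21 ± 0.26, adjusted p = 1.2e-08, with summed pairs 2.3e-05). Histone copies are near-identical, and most of these messages lack a poly(A) tail, so poly-T selection takes them up poorly and their counts are uncertain. With DEX against no DEX under control peptide they were also lower: 22 of the 37 were lower and 0 higher, where 5.33% of all genes were called lower. Members that passed the count filter only through the cultures without DEX may be among the 22, which favours a call of lower. Their part was not tested. Hist1h1d averaged 27.7 ± 2.41 CPM with DEX and 81.7 ± 9.92 CPM without (log2 change -1.56 ± 0.09, adjusted p = 3.1e-16). At 1, 3, 10, 30 and 100 µM interfering peptide its mean was 32.1, 33.9, 26.4, 17.3 and 5.44 CPM. The fall was steepest in the last step. Against 30 µM 12 of the 37 were lower and 0 higher, where 1.12% of all genes were called lower. Of 25 S phase genes, other genes of DNA replication, 4 were higher and 5 lower, with 4 higher and 0 lower in libraries 1 and 3 alone and 2 higher and 8 lower in libraries 2 and 4 alone. Of 21 mitosis genes 5 were higher and 0 lower, with 5 higher and 3 lower in libraries 2 and 4 alone. The shares called were 36% of S phase and 23.8% of mitosis genes, against 23.3% of all genes. Pcna, the replication clamp, was at 0.20 ± 0.05 (adjusted p = 0.00091, with summed pairs 0.027) and Ccnb1, the mitotic cyclin, at 0.23 ± 0.05 (adjusted p = 0.00048, with summed pairs 0.032).

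Known glucocorticoid targets showed no common direction. Of 30 tested 5 were higher and 4 lower, with a median log2 change of 0.09, and with summed pairs 2 were higher and 3 lower. The share called was 30%, against 23.3% of all genes. With libraries 1 and 3 alone 6 were higher and 2 lower, and with libraries 2 and 4 alone 6 were higher and 7 lower. Fkbp5, the co-chaperone that limits the receptor's hormone binding and is a classic target, had 80.01, 76.4, 85.4 and 83.7 CPM with the interfering peptide and 97.9, 104, 105 and 103 CPM with the control peptide. Every interfering peptide library lay below every control peptide library, and the log2 change was -0.33 ± 0.05 (adjusted p = 1.3e-06, with summed pairs 0.0019). In control peptide cultures Fkbp5 was not called with DEX against no DEX, at 102 ± 3.15 CPM with DEX and 101 ± 4.48 CPM without (log2 change 0.02 ± 0.05, adjusted p = 0.82). Its mean at 1, 3, 10, 30 and 100 µM interfering peptide was 96.5, 90.7, 93.4, 80.7 and 81.4 CPM.

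Hif3a, a target in many tissues, was both higher with DEX and lower with the interfering peptide. Both changes use the control peptide libraries with DEX, so their opposite signs are not independent. Hif3a had 19.3, 20.9, 17.9 and 21.1 CPM with the interfering peptide and 29.01, 26.8, 27.1 and 25.6 CPM with the control peptide (log2 change -0.46 ± 0.09, adjusted p = 0.00011, with summed pairs 0.013), and 15.7 ± 1.15 CPM without DEX (DEX log2 change 0.79 ± 0.09, adjusted p = 1.6e-08). Per1, the clock gene with glucocorticoid elements, moved the other way from Hif3a, with 91.3, 73.96, 83.5 and 72.3 CPM with the interfering and 67.5, 66.99, 63.04 and 62.9 CPM with the control peptide (log2 change 0.30 ± 0.07, adjusted p = 0.0032, but 0.075 with summed pairs), and its DEX change was 0.31 ± 0.08 (adjusted p = 0.0082). Fam107a, named after its values were seen as the lowest called member, had 0.358, 0.863, 1.13 and 0.362 CPM with the interfering and 0.9001, 2.14, 1.45 and 1.499 CPM with the control peptide, with overlapping groups (log2 change -1.13 ± 0.38, adjusted p = 0.025, with summed pairs 0.046). The kinase Sgk1, at 12.6, 13.3, 12.4 and 14.7 CPM with the interfering and 10.2, 13.4, 11.3 and 12.1 CPM with the control peptide, did not pass (log2 change 0.17 ± 0.11, adjusted p = 0.28).

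The higher members were Dusp1, Nfkbia, Tiparp, Per1 and Glul, of which Dusp1, Nfkbia and Per1 are also known as early-response, inflammatory and clock genes. Dusp1, a MAP kinase phosphatase, had 95.8, 69.1, 93.5 and 66.6 CPM with the interfering and 37.5, 38.05, 35.97 and 38.03 CPM with the control peptide, a log2 change of 1.12 ± 0.10 (adjusted p = 1.4e-08, with summed pairs 0.00049), and it was not called with DEX against no DEX (log2 change 0.05 ± 0.11, adjusted p = 0.83). Tiparp, a mono-ADP-ribosyltransferase, had 71.7, 64.3, 81.1 and 66.7 CPM with the interfering and 54.7, 56.6, 57.2 and 57.05 CPM with the control peptide (log2 change 0.33 ± 0.07, adjusted p = 0.00033, with summed pairs 0.013), and under control peptide it was lower with DEX (log2 change -0.24 ± 0.07, adjusted p = 0.017). In control peptide cultures DEX called 5 of the 30 targets higher and 3 lower, where 5.48% of all genes were called higher and 5.33% lower. The palindromic glucocorticoid element was in the window of 1 of 23 tested targets with one, and of 0.0117% of all genes.

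Neither the receptor's gene nor Frmd5 passed the test. Nr3c1, which encodes the glucocorticoid receptor, had 13.5, 13.7, 14.8 and 15.2 CPM with the interfering peptide and 14.1, 15.3, 13.3 and 17.6 CPM with the control peptide (log2 change -0.08 ± 0.10, adjusted p = 0.61). Frmd5 had 91.1, 94.2, 89.1 and 99.6 CPM with the interfering and 90.4, 83.5, 89.6 and 90.3 CPM with the control peptide (log2 change 0.08 ± 0.05, adjusted p = 0.23), with overlapping groups in both genes. A peptide that interferes with a protein need not change its transcript, so this checks no label. Of 21 FERM-domain genes 3 were higher and 1 lower, with a median of 0.05, so 19% were called against 23.3% of all genes. Epb41l2, a membrane skeleton protein of the 4.1 family, had 76.9, 83.1, 79.2 and 80.1 CPM with the interfering and 68.4, 59.3, 67.5 and 64.5 CPM with the control peptide (log2 change 0.30 ± 0.05, adjusted p = 5.3e-05, with summed pairs 0.0097), and the phosphatase Ptpn4 changed by 0.27 ± 0.07 (adjusted p = 0.0066, with summed pairs 0.044). Of 21 genes of receptor chaperones and coregulators, 6 were higher and 1, Fkbp5, was lower, so 33.3% were called. Ncor1, a corepressor, had 433, 433, 448 and 463 CPM with the interfering and 393, 355, 402 and 377 CPM with the control peptide (log2 change 0.22 ± 0.04, adjusted p = 5.5e-05, with summed pairs 0.021), and St13, an Hsp70 partner of the receptor complex, changed by 0.19 ± 0.04 (adjusted p = 0.00047, with summed pairs 0.04).

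**Figure D5:**
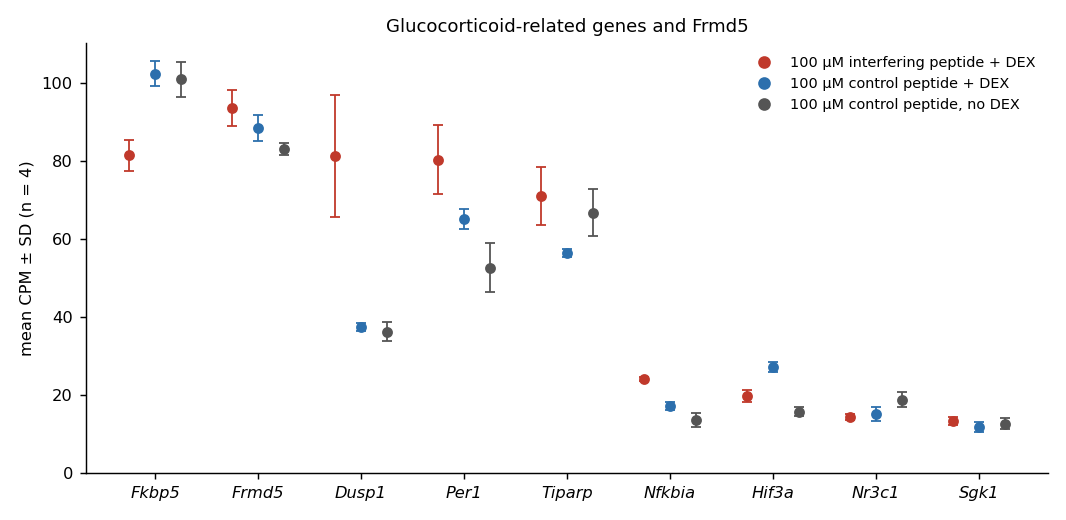
Mean CPM and SD of 4 libraries for 9 genes in cultures with 100 µM interfering peptide and DEX (red), 100 µM control peptide and DEX (blue), and 100 µM control peptide without DEX (grey). Fkbp5 is lower in red than in blue while blue and grey lie within 1 SD of each other, Hif3a is highest in blue, and Dusp1 is highest in red.

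Calls among neuronal genes depended on the pair of libraries. Of 27 genes of the excitatory synapse 7 were higher and 1 lower, of 25 ion channel genes 7 were higher and 1 lower, and of 25 cytoskeleton and growth cone genes 7 were higher and 0 lower, against 11.6% of all genes in each direction. With summed pairs 1, 5 and 1 of these were higher and 0 lower. With libraries 1 and 3 alone, 2 excitatory synapse genes were higher and 4 lower, 3 ion channel genes were higher and 5 lower, and 10 cytoskeleton genes were higher and 1 lower. With libraries 2 and 4 alone the counts were 14 higher, 15 higher and 11 higher, with 0 lower in each list. Of the 15 neuron markers, 2 were higher and 0 lower with summed pairs. With libraries 1 and 3 alone 5 of them were higher and 3 lower, and with libraries 2 and 4 alone 8 were higher and 0 lower. Map2 had an adjusted p of 0.059 with summed pairs. Tuba1a, the main neuronal alpha-tubulin, whose exons overlap those of Gm49450 on the same strand, had 3724, 3626, 3875 and 3641 CPM with the interfering and 2970.1, 2933, 2879 and 3023 CPM with the control peptide (log2 change 0.33 ± 0.04, adjusted p = 1.8e-08, with summed pairs 0.0019). Among channels, the potassium channel Kcna1 changed by 0.70 ± 0.13 (adjusted p = 0.0001, with summed pairs 0.0069) and the scarcer Kcnj4 by 1.34 ± 0.28 (adjusted p = 0.00034, with summed pairs 0.0036), and the sodium channel Scn1a by 0.31 ± 0.08 (adjusted p = 0.0023, with summed pairs 0.033).

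Of 21 genes of inhibitory synapses and interneurons 2 were higher and 4 lower, so 28.6% were called against 23.3% of all genes. Calb2, the calretinin of some interneurons, had 6.74, 9.13, 6.098 and 7.24 CPM with the interfering and 12.3, 13.1, 13.6 and 10.8 CPM with the control peptide (log2 change -0.77 ± 0.14, adjusted p = 4.7e-05, with summed pairs 0.011), and Lhx6, a factor of ventrally derived interneurons, 86.5, 83.5, 80.4 and 81.6 CPM with the interfering and 97.4, 98.9, 91.1 and 103 CPM with the control peptide (log2 change -0.23 ± 0.05, adjusted p = 0.0011, with summed pairs 0.034). Gad1, the main GABA-synthesizing enzyme, was higher instead at 0.19 ± 0.05 (adjusted p = 0.0075, with summed pairs 0.1).

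Of 18 apoptosis genes 3 were higher and 6 lower, so 50% were called against 23.3% of all genes. Bcl2l1, which protects cells, changed by -0.19 ± 0.05 (adjusted p = 0.0042, with summed pairs 0.046). Of 18 genes of metal and oxidant defence 5 were higher and 4 lower, also 50%. Hmox1, heme oxygenase, had 9.25, 7.403, 8.93 and 4.93 CPM with the interfering and 16.1, 18.3, 16.1 and 19.02 CPM with the control peptide (log2 change -1.19 ± 0.15, adjusted p = 2.6e-07, with summed pairs 0.0025), and Prdx1, a peroxiredoxin, 133, 128, 141 and 132 CPM with the interfering and 95.1, 107, 109.9 and 109.7 CPM with the control peptide (log2 change 0.34 ± 0.05, adjusted p = 1.7e-06, with summed pairs 0.0014). Prdx1 and Hmox1 moved in opposite directions, and in both the groups did not overlap.

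Other lists with shares called near or below the 23.3% of all genes included the nuclear-encoded respiratory chain (3 higher and 0 lower of 27), cytosolic ribosomal proteins (4 higher and 0 lower of 31), p53 targets (3 higher and 1 lower of 20), the mitochondrial genome (1 higher and 0 lower of 13), membrane trafficking and autophagy (4 higher and 1 lower of 21) and oligodendrocyte markers (0 higher and 1 lower of 10). Serum response factor and YAP targets had 4 higher and 2 lower of 15, well-studied long noncoding RNAs 5 higher and 1 lower of 19, and clock genes 4 higher and 3 lower of 19. Their shares called were 40%, 31.6% and 36.8%, in this order. With libraries 1 and 3 alone 13 ribosomal protein genes were higher and 0 lower, and with libraries 2 and 4 alone 1 was higher and 2 lower. For the respiratory chain these counts were 4 higher and 0 lower with libraries 1 and 3, and 1 higher and 6 lower with libraries 2 and 4. Of the clock genes Ciart, a repressor, had 8.101, 4.82, 6.17 and 4.13 CPM with the interfering and 11.01, 10.2, 8.903 and 10.6 CPM with the control peptide (log2 change -0.81 ± 0.15, adjusted p = 4.8e-05, with summed pairs 0.0049). Astrocyte and radial glia markers had 4 higher and 2 lower of 19, with 9 higher and 0 lower in libraries 1 and 3 alone and 3 higher and 3 lower in libraries 2 and 4 alone, and with summed pairs 0 were called, while 6 had an unadjusted p below 0.05.

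Among protein-coding genes outside the lists that averaged 2 CPM or more and had groups without overlap, the largest falls were in genes of varied function. Slc16a9, a monocarboxylate transporter family member, had 1.22, 1.44, 1.35 and 1.38 CPM with the interfering and 5.33, 5.996, 4.78 and 4.36 CPM with the control peptide (log2 change -1.92 ± 0.21, adjusted p = 1.5e-09, with summed pairs 1.4e-05). Parp12, an ADP-ribosyltransferase known as interferon-induced, had 3.23, 2.52, 3.33 and 2.898 CPM with the interfering and 8.79, 11.7, 9.699 and 11.9 CPM with the control peptide (log2 change -1.81 ± 0.17, adjusted p = 9.7e-11, with summed pairs 2.6e-05). Tfcp2l1, a grainyhead-family transcription factor, had 3.87, 2.44, 3.12 and 2.75 CPM with the interfering and 10.7, 11.6, 9.48 and 11.7 CPM with the control peptide (log2 change -1.83 ± 0.22, adjusted p = 6.4e-07, with summed pairs 0.0031). Under control peptide both Parp12 and Tfcp2l1 were also lower with DEX than without, with log2 changes of -0.86 ± 0.14 (adjusted p = 3.4e-05) and -1.37 ± 0.17 (adjusted p = 4.8e-06). The groups of Slc16a9, Parp12 and Tfcp2l1 did not overlap, which the choice of these genes required.

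Cyp4f13, a cytochrome P450, changed by -1.86 ± 0.24 (adjusted p = 1.4e-07, with summed pairs 0.00059), Arsg, a lysosomal sulfatase, by -1.40 ± 0.29 (adjusted p = 0.00062, with summed pairs 0.036), and Dnajb3, an Hsp40 cochaperone, by -1.39 ± 0.27 (adjusted p = 0.00013, with summed pairs 0.0073). Trim66, a chromatin-associated TRIM protein, had 14.6, 8.12, 12.1 and 8.62 CPM with the interfering and 37.9, 46.8, 36.3 and 52.8 CPM with the control peptide (log2 change -1.998 ± 0.34, adjusted p = 0.00016, but 0.071 with summed pairs), and split by pair as Trib3 did. Sertad1, a regulator of cyclin-dependent kinases and transcription, completed the largest rises, with 6.52, 2.73, 5.81 and 2.83 CPM with the interfering and 1.59, 2.55, 1.23 and 1.57 CPM with the control peptide (log2 change 1.36 ± 0.27, adjusted p = 0.00017, with summed pairs 0.011). Its libraries 2 and 4 with the interfering peptide were just above the highest control peptide library.

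Among long noncoding genes, Gm26917 at chr17:39843013-39846341 (build mm10) had 154, 146, 158 and 133 CPM with the interfering peptide and 58.8, 44.5, 51.8 and 47.2 CPM with the control peptide (log2 change 1.55 ± 0.09, adjusted p = 4.2e-13, with summed pairs 2.8e-09). Gm45518 at chr8:64701107-64711076 had 4.16, 2.59, 4.54 and 3.19 CPM with the interfering and 0, 0.138, 0.145 and 0.204 CPM with the control peptide, so that the control group was near 0 (adjusted p = 1.2e-11, with summed pairs 6.5e-07). Its mean was 0.294, 0.102, 0.555, 1.66 and 3.62 CPM from 1 to 100 µM. Lower were Gm42743 at chr3:96269721-96279001, with 12.8, 10.6, 13.9 and 11.1 CPM with the interfering and 29.6, 26.1, 29.9 and 24.6 CPM with the control peptide (log2 change -1.19 ± 0.12, adjusted p = 8.7e-09, with summed pairs 0.00049), and Pantr2, with 9.96, 9.2003, 8.86 and 7.39 CPM with the interfering and 16.96, 18.3, 16.1 and 15.7 CPM with the control peptide (log2 change -0.92 ± 0.11, adjusted p = 6.2e-09, with summed pairs 5.3e-05). Mir124a-1hg, a host transcript of the neuronal microRNA miR-124, had 93.5, 107, 89.3 and 109 CPM with the interfering and 142, 134, 151 and 148 CPM with the control peptide (log2 change -0.53 ± 0.06, adjusted p = 1.1e-09, with summed pairs 0.00023). The groups did not overlap for any of these 5 genes. Exons of Gm42743 also overlap those of the histone gene Hist2h2bb on the same strand, by up to 226 bases. Hist2h2bb itself had 0 counts in the 8 libraries, so reads of both genes cannot be told apart.

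Over all genes, 100 µM interfering peptide differed from 1 µM at 3508 genes, which is 20.4%, and from 30 µM at 463 genes, which is 2.69%. With summed pairs the counts were 1538, which is 8.94%, and 59, which is 0.343%. DEX against no DEX under control peptide called 1861 genes, or 10.8%, and 295 with summed pairs, which is 1.71%. The comparisons with 1 µM and 30 µM share the 100 µM libraries with the main one, and the DEX comparison shares the control peptide libraries, so their counts are given side by side and not as overlaps.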

How the data were processed

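Poly(A) RNA of mouse cortical neuron cultures was taken up on poly-T beads and primed with random hexamers, per the labels' protocols. Reads were aligned with HISAT2 2.2.1 to mm10, per the submitters' processing notes. No source used here gives the counter, the annotation or the strand setting. The deposited table holds whole-number read counts per gene as the authors made them, for 54532 genes, 50262 of them on chromosomes 1 to 19 and MT. No column held another series' sample.

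All 28 neuron libraries in 7 groups (13685236 to 17083701 counts) were fitted together in edgeR 4.0.16 (R 4.3.3) with filterByExpr, TMM scaling and the robust quasi-likelihood test, with no block. P-values were Benjamini-Hochberg adjusted over the 17837 genes tested, of which 17213 lie on chromosomes 1 to 19 and MT. SE is the absolute log2 change over the square root of F. The members and lists were chosen with earlier results of these data known. Named genes were a fixed set (Frmd5, Nr3c1, Fkbp5, Per1, Sgk1), the 12 called protein-coding genes that rose most and the 12 that fell most, provided they averaged 2 CPM or more and the groups did not overlap, up to 5 called genes with the smallest p per list, cell type markers and up to 5 noncoding genes. Other members were named to complete a list. Some genes that meet this rule are not reported here. In simulated counts for 17518 genes, 50 genes were changed at each fold. In the main comparison the test recovered 54% of genes changed 1.25-fold, 74% at 1.5-fold, 92% at 2-fold and 100% at 4-fold. Of its 171 calls 6.43% were false. The false share was not tested for libraries alike in pairs. It therefore does not describe the 4005 calls of the real data, of which summed pairs left far fewer.

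Promoter windows, 250 bases before RefSeq starts (GRCm38.p6), were searched on both strands for 8 motifs, the half-site TGACG, the full cyclic AMP element TGACGTCA that contains it, the AP-1 site TGANTCA, the ATF4 element TGATGNAA, the sterol element TCACNCCAC, the glucocorticoid element, the CArG box and the NF-kB site. Exon overlaps were read from GENCODE M21, which held 17206 of the 17213 genes. Alternatives were RLE scaling, no filter, a replicate block, fits of fewer genes or groups, libraries summed in pairs, each pair alone, DESeq2 1.42.0 and each library left out. The summed pairs, like the fits of each pair alone, answer the likeness of libraries 1 and 3 and of 2 and 4.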

Additional observations from a re-analysis of the deposited data

Results flagged for a closer look

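In 13 of 340 groups of 4 libraries tested, or 3.82%, a single library lay far from the other 3 by Dixon's criterion, and chance alone flags about 1 in 20. With the interfering peptide, one library had 79.1 CPM of Bcl2l1 where the other 3 averaged 83.8, 2286 of Dpysl3 where the others averaged 2375, 140.2 of Gabarapl1 where the others averaged 133, 0.216 of Psmb9 where the others averaged 0.0717, and 55.1 of Sesn1 where the others averaged 62.9 CPM. With the control peptide, one library had 159.6 CPM of Atp5c1 (others 176.5), 88.5 of Bcl2l1 (others 95.8), 7.96 of Csf1r (others 9.03), 83.5 of Frmd5 (others 90.1) and 3.20 of Gadd45b (others 5.37). Likewise with the control peptide, one library had 1143 CPM of Hsp90aa1 (others 1230), 25.8 of Rgs5 (others 40.9) and 94.7 of Sox9 (others 80.3). The odd library for Frmd5 was the lowest of its group, and without it the control peptide libraries lie within the range of the interfering peptide libraries.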

How the results depend on the processing

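The 4005 calls between 100 µM interfering and control peptide became 1744 with libraries summed in pairs, 2645 with libraries 1 and 3 alone and 3201 to 3888 with each library left out. The other alternatives gave 3575 to 4123, and the share of higher calls ran from 48.7% to 55.5%. Summing in pairs leaves fewer samples. DEX against no DEX gave 295 calls with summed pairs and 1124 to 1731 with a library left out, lowest without control peptide replicate 1. Against 1 µM, 1538 were called with summed pairs and 2817 to 3166 with a library left out. Against 30 µM the count was 59 with summed pairs, 1112 with libraries 2 and 4 alone and 231 to 570 with a library left out, below 300 without replicate 2 or 4 at 100 µM or replicate 1 or 3 at 30 µM. The fits of a single pair of libraries were chosen after seeing the data. The cause of the moves with single pairs and left-out libraries was not tested. Same-numbered libraries of both peptides did not deviate together (r of 0.061, 0.0046, -0.0032 and 0.012), so no pairing by number was detected. Whether they share a culture or a preparation is not in the labels. A replicate block gave 3856, 1776, 3414 and 412 calls in the 4 comparisons, in the order above. Of 156 named genes called, summed pairs lost 59, libraries 1 and 3 alone 30, libraries 2 and 4 alone 21, and each left-out library 7 to 19, and no called gene changed sign in any alternative run. At 13685236 to 14492813 counts per library, the depth limits genes near or under 1 CPM, such as Fam107a and Psmb9, to few counts per library.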

Other observations

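A ribosomal pseudogene and blood-cell transcripts stood out beyond the groups described, and were named after their values were seen. Rps3a2, a processed pseudogene of the small-subunit protein gene Rps3a1 at chr14:88123017-88123808 (mm10), had 1.08, 1.01, 2.48 and 1.304 CPM with the interfering peptide and 56.4, 51.3, 48.8 and 54.8 CPM with the control peptide (log2 change -5.16 ± 0.15, adjusted p = 4.4e-27, with summed pairs 1e-14). Its mean was 32.8 CPM with control peptide without DEX and 52.8 CPM with DEX, and 51.5, 36.4, 1.84, 1.47 and 1.47 CPM at 1, 3, 10, 30 and 100 µM interfering peptide, a step between 3 and 10 µM. Another copy, Rps3a3, had a log2 change of -1.94 ± 0.21 (adjusted p = 1.1e-09, with summed pairs 2.7e-06), and Rps3a1 itself averaged 646 ± 43.02 CPM with the interfering and 526 ± 28.8 CPM with the control peptide (log2 change 0.30 ± 0.04, adjusted p = 5.1e-07, with summed pairs 0.0033). Reads of these copies are nearly alike, so their split is uncertain.

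Hba-a1, an alpha-globin gene of red cells, averaged 336 ± 6.95 CPM with the interfering and 172 ± 16.3 CPM with the control peptide (log2 change 0.97 ± 0.22, adjusted p = 0.0029, with summed pairs 0.009). The beta-globin gene Hbb-bs averaged 143 ± 5.82 CPM with the interfering and 121 ± 8.99 CPM with the control peptide (log2 change 0.24 ± 0.06, adjusted p = 0.0042, with summed pairs 0.047). The 7 tested erythroid genes summed to 536 to 569 CPM with the interfering and 357 to 379 CPM with the control peptide, and these 2 were called higher, or 28.6% against 23.3% of all genes. The sum is carried by Hba-a1: its sister copy Hba-a2 was at -1.47 ± 1.31 (adjusted p = 0.46) and Hba-x at -0.45 ± 0.23 (adjusted p = 0.17), and the median over the 7 was 0.06. Rn7sk, the small RNA that holds back the elongation factor P-TEFb, averaged 7.52 ± 0.815 CPM with the interfering and 2.78 ± 0.606 CPM with the control peptide (log2 change 1.44 ± 0.19, adjusted p = 2.6e-07, with summed pairs 0.00011), although it lacks a poly(A) tail.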
